A study of Mus musculus with 4 samples.

Results

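The genes described here encode the receptors for glutamate, GABA and glycine, the main fast transmitters of the brain, and they were read through H3K27 acetylation (H3K27ac) in female mouse neural stem cells. Members were the protein-coding genes whose RefSeq symbols name a subunit of the AMPA, kainate, NMDA and delta glutamate receptors (Gria, Grik, Grin, Grid), the metabotropic glutamate receptors (Grm), the GABA-A and GABA-B receptors (Gabra, Gabrb, Gabrg and the other Gabr genes, Gabbr) and the glycine receptors (Glra, Glrb). This gave 52 of the 21627 protein-coding genes on chromosomes 1 to 19 and X. The rule reads symbols and no measured value, although the set was proposed with earlier results of these data known.

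The study compared Smchd1-deleted with Smchd1-control neural stem cells, with 1 H3K27ac library and 1 input library in each group. Smchd1 encodes a chromatin protein known for its part in X inactivation and in silencing of clustered genes. All cells came from the brains of female E14.5 embryos that carried 1 deleted and 1 floxed Smchd1 allele, a maternal 129-derived X chromosome with the Xist deltaA mutation and a paternal Castaneus X chromosome; the strain is labelled C57BL/6. Smchd1-deleted cells (del/del) had been transduced with the MSCV-Cre-puro retrovirus, were selected with puromycin from 24 h and were harvested on day 7. Smchd1-control cells are titled fl/fl, their genotype field reads del/fl, and they were not transduced. The deletion, the transduction and the selection therefore cannot be told apart. The antibody field of the H3K27ac libraries names H3K27me3, and the genotype field of the control input reads del/del; the titles were followed here.

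Acetylation of histone H3 at lysine 27 marks active promoters and enhancers. Ionotropic receptors are ion channels that open when a transmitter binds, with cation channels for glutamate and chloride channels for GABA and glycine, whereas metabotropic receptors signal through G proteins. Most of these genes are known for their use in neurons, but neural stem cells and astrocytes also use some of them, among them Grm5, Gria2, Gabra2 and Gabrg1. In a bulk culture, a mark in few cells and a weak mark in many cells cannot be told apart.

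The sequences shown first are the promoters on which the start-site results below turn. They are RefSeq windows on GRCm38.p6 of 300 bases, running from 250 bases before to 50 bases after an annotated start, printed 5′ to 3′ on the gene's strand, which is the minus strand for all 7. Capitals mark CG dinucleotides, and the other bases are in lower case. Gria2, Gria4, Gabra2 and Gabrg1 had start peaks in both lists, Grm3 had one in the deleted list, and Grin1 and Gabbr2 had CG-rich windows with no start peak.
Gria2: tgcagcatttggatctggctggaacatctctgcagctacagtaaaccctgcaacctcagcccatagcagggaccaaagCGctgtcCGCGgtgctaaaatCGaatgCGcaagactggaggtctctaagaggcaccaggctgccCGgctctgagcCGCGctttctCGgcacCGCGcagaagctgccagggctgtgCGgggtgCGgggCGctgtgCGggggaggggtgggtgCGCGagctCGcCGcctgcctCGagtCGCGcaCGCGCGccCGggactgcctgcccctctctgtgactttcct
Gria4: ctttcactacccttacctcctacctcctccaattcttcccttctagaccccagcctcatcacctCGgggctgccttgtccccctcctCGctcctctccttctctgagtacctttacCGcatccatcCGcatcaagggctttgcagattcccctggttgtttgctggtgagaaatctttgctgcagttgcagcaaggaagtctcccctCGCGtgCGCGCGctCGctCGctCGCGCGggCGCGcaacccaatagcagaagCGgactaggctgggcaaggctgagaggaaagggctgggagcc
Gabra2: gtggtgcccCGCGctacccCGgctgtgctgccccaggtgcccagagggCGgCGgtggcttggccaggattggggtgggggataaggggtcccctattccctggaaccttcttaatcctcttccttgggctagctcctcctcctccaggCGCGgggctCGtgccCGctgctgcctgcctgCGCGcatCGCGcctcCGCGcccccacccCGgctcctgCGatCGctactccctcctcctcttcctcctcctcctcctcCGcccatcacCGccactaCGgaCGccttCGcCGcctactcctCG
Gabrg1: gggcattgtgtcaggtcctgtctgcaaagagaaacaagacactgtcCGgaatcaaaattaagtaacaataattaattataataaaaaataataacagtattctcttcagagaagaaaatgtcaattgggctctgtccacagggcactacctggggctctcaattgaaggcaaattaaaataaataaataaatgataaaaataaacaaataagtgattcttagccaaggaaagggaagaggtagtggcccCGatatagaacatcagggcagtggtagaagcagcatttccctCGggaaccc
Grm3: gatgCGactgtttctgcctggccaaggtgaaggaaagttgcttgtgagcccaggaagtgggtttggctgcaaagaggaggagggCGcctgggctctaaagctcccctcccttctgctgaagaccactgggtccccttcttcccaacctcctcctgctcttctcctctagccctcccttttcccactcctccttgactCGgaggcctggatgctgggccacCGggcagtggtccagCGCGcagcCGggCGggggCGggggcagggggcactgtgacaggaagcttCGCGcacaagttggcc
Grin1: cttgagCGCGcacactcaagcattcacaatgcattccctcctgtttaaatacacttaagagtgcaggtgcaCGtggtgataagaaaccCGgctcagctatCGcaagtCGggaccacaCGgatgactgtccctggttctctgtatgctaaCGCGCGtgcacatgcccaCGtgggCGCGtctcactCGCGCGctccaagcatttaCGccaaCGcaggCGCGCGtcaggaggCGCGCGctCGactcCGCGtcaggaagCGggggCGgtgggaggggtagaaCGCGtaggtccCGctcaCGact
Gabbr2: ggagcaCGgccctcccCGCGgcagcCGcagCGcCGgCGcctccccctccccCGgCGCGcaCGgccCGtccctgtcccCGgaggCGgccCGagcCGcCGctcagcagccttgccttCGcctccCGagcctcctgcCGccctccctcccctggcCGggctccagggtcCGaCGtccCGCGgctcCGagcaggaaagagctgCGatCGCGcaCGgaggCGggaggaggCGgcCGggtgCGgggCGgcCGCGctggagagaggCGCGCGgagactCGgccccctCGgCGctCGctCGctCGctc
The windows lie at chr3:80802786-80803085 (Gria2), chr9:4796185-4796484 (Gria4), chr5:71095800-71096099 (Gabra2), chr5:70842568-70842867 (Gabrg1), chr5:9725303-9725602 (Grm3), chr2:25319138-25319437 (Grin1) and chr4:46991665-46991964 (Gabbr2). They hold 26 CG dinucleotides in Gria2, 17 in Gria4, 25 in Gabra2, 3 in Gabrg1, 11 in Grm3, 33 in Grin1 and 46 in Gabbr2. The Gabra2 window was covered over all 300 bases by peaks of both lists. The Gria2 window had 143 bases under deleted peaks and 115 under control peaks, and the Gria4 window had 235 and 193. The Gabrg1 window had 84 bases under a deleted peak and 0 under control peaks, although control peaks lay on both sides of it. The Grm3 window had 36 bases under its deleted peak and 0 under a control peak. No base of the Grin1 and Gabbr2 windows lay under a peak of either list.

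The deposited values are peak lists, called separately in each library against its own input. The deleted list held 91557 peaks on the chromosomes used and the control list 63613, a ratio of 1.44, and 54194233 and 42277672 filtered ChIP tags stood behind them, a ratio of 1.28. A larger number of peaks in the deleted list was therefore a property of the whole list, and every count below is read against it. The targeted gene Smchd1 itself had 3 deleted and 2 control peaks, with strongest folds of 7.72 and 8.88; the mark over the gene does not check the deletion. All 12 neural stem cell markers, Sox2, Nes, Pax6 and Olig2 among them, had peaks in both lists, and the medians of their strongest folds were 13.1 in deleted and 13.0 in control cells. Of 12 neuronal markers, 5 had peaks in both lists, 2 in the deleted list alone (Nefm, Gad1) and 5 in neither (Nefl, Snap25, Stmn2, Syn1, Dcx). Among all protein-coding genes, 5.48% had peaks in the deleted list alone and 29.3% in neither. Of 6 astrocyte markers 5 had peaks in both lists, as did 5 of 6 oligodendrocyte lineage markers and 4 of 5 microglia markers. At least 2 times as many deleted as control peaks, with 4 or more deleted, were found at 3 of the 6 astrocyte markers (50%). The same held for 1 of 12 neural stem cell and 1 of 12 neuronal markers (8.33% each). No oligodendrocyte lineage or microglia marker met it, and 10.2% of all protein-coding genes did. The deleted list was 1.44 times as long, and the share of astrocyte markers was not tested. Summed over the astrocyte list there were 46 deleted and 35 control peaks, and over the neuronal list 37 and 23. The sums were 130 and 120 for neural stem cell, 87 and 69 for oligodendrocyte lineage and 9 and 10 for microglia markers. The part of other cell types in the counts below was not tested.

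A peak was assigned to a receptor gene if it overlapped the gene body extended by 10 kb on each side. With 1 library in a group no difference between the groups can be tested, so counts are given with 95% intervals that cover counting error only and treat peaks as independent. A peak is called list-only where it shares no base with a peak of the other list. The fold of a peak is the authors' enrichment over local input background.

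Of the 26 glutamate receptor genes, 23 had a peak in at least 1 list and 3 had none (11.5%). Of all protein-coding genes 29.3% had none, and of those of at least 100 kb 13.2%, near the share of glutamate receptor genes. At 4 of the 23 (Grin2c, Grin2d, Grin3b, Grm6) the peaks lay only in the flanks. Of the 19 GABA-A subunit genes, rho subunits included, 6 had a peak and 13 had none (68.4%), while both GABA-B genes had peaks in both lists. The glutamate receptor genes are also the longer ones, with a median of 298 kb against 88.6 kb for the 21 GABA receptor genes, and the difference between the families was not tested. Over all 52 genes, 27 had peaks in both lists (51.9%), where 64.4% of all protein-coding genes did. In the deleted list alone there were 5 (9.62%; 5.48% of all protein-coding genes), namely Grm3, Grm8, Gabrr1, Gabrr2 and Glra1. In the control list alone there was 1, Gabra5 (1.92%; 0.869% of all). The remaining 19 had no peak in either list (36.5%; 29.3% of all).

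The receptor genes are long, with a median of 160 kb against 17.3 kb over all protein-coding genes, and long genes collect more peaks. Of the 28 receptor genes of at least 100 kb, 17 had peaks in both lists (60.7%), against 78.3% of the 2426 protein-coding genes of that length, while 8 had none (28.6%, against 13.2%). In the deleted list alone there were 2 of the 28 (7.14%, against 7.87%), and in the control list alone 1 (3.57%, against 0.618%). The same 28 genes had medians of 2.5 deleted and 1.5 control peaks, where long protein-coding genes had 5 and 3. Per 100 kb of extended gene body the 52 genes had median densities of 0.855 deleted and 0.341 control peaks, and all protein-coding genes had 4.41 and 3.14; for a short gene most of the extended body is flank. In both lists, then, the receptor genes carried fewer peaks for their length than the median protein-coding gene.

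Summed over the receptor genes there were 181 distinct deleted peaks and 117 distinct control peaks, a ratio of 1.55 (95% interval 1.22 to 1.97). The bodies of all protein-coding genes had 73471 and 52147 peaks, a ratio of 1.41, and those of at least 100 kb had a ratio of 1.52. Both background ratios lay within the receptor genes' interval. At least 2 times as many deleted as control peaks, with 4 or more in the deleted list, were found at 6 genes (11.5%), where 10.2% of all protein-coding genes and 19.5% of those of at least 100 kb met the rule. Among them were Grm3, Grm4, Grik1, Grik3 and Grin2a, and all 6 were among the 26 glutamate receptor genes (23.1%), which are long. Of the GABA and glycine receptor genes, only Gabrg1 and Gabbr2 had the 4 deleted peaks that the rule needs. No receptor gene met the rule in the other direction, and 0.633% of all protein-coding genes did (0.371% of the long ones). The share of receptor genes past the rule was near the background, so it is no result about receptor genes as a group. The deleted list was also cut to its 63613 peaks of best p-value, which makes the whole lists equal in length. The sums were then 113 and 117, the ratio 0.966, and only Grik3 of the 6 still met the rule, where 2.7% of all protein-coding genes did.

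**Figure D1:**
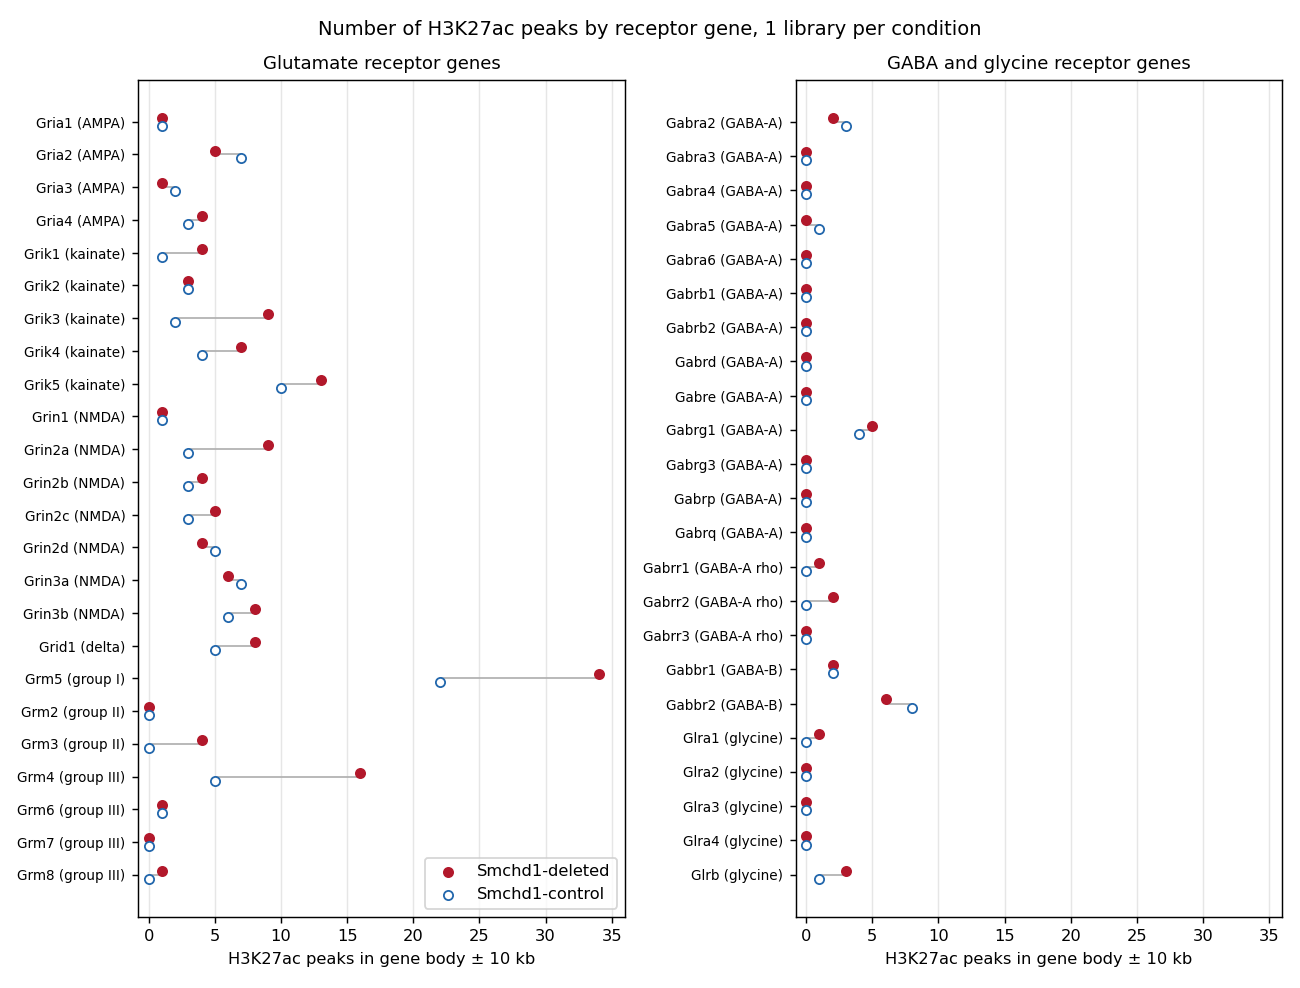
Number of H3K27ac peaks over the extended body of each of 47 receptor genes in deleted (filled) and control (open) cells, 1 library each, grouped by receptor family. Grm5 had the most peaks in both lists, 34 and 22, and GABA-A and glycine genes had at most 5.

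The 18 ionotropic glutamate receptor genes had 92 distinct deleted and 66 distinct control peaks (ratio 1.39, interval 1.01 to 1.94).

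All 4 AMPA receptor genes, whose channels carry fast excitatory current, had peaks in both lists, 11 deleted and 13 control in all. Gria2 encodes the subunit that makes the channel impermeable to calcium after RNA editing, and it had 5 deleted and 7 control peaks. Its acetylation was concentrated in a run of 4.01 kb at the start, chr3:80799316-80803326, with 3 deleted and 5 control peaks. The strongest peak of deleted cells there, chr3:80800380-80801428, had a fold of 10.1, and its control counterpart, chr3:80800388-80801451, one of 8.88. The peak just inside the start had a fold of 6.12 in deleted and 10.1 in control cells, and the one just upstream had 4.70 and 4.03. Thus all 3 deleted peaks of the run overlapped control peaks. The control list had further peaks downstream of them, and the one at chr3:80799809-80800033 had a fold of 5.25 and lay 347 bases from the nearest deleted peak.

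At Gria4, another AMPA subunit, a run of 1.58 kb at the start held 3 peaks in each list. Their strongest folds were 9.07 in deleted and 6.86 in control cells, and another deleted peak, with a fold of 3.33, lay 290 kb inside the gene. Gria3 is X-linked and had 1 deleted peak at a gene end, of 1302 bases with a fold of 6.14. The control list held 2 shorter peaks on the same stretch, of 694 and 175 bases with folds of 5.25 and 3.83, so the stretch was acetylated in both lists and cut differently. Gria1 had 1 weak peak in each list, with folds of 2.83 and 3.03, at positions 32944 bases apart. Of the 4 AMPA genes, Gria1 alone had no peak near either end.

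The 5 kainate receptor genes had 36 deleted and 20 control peaks (ratio 1.80, interval 1.01 to 3.28), and all had peaks in both lists. Grik3, a subunit that can form channels by itself, had 9 deleted and 2 control peaks. A run of 6.89 kb about 44 kb into the gene, chr4:125534496-125541386, held 4 deleted and 0 control peaks, with deleted folds of 2.85 to 3.86. A run of 1.76 kb at 212 kb held 4 deleted and 2 control peaks, and here the strongest folds were 5.54 and 5.41. The strong site of Grik3 was thus shared, and the deleted-only peaks were among the weaker ones.

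Grik1, a subunit of the same kind, had 4 deleted and 1 control peak. The control peak overlapped the strongest deleted peak, with folds of 3.86 in deleted and 4.24 in control cells, and the other 3 deleted peaks had folds of 3.10 to 3.69. Grik2 had 3 peaks in each list, with strongest folds of 6.88 and 7.67 about 6 kb inside the gene and start peaks of 6.55 and 5.65. Grik2 therefore looked alike in count and place, apart from 1 weak list-only peak in each list.

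Grik4 and Grik5 encode subunits that bind glutamate tightly and need a partner to form a channel. Grik4 had 7 deleted and 4 control peaks, and a weak peak at its start (fold 3.53) stood in the deleted list alone. Grik5 had 13 deleted and 10 control peaks, or 15.1 and 11.6 per 100 kb of extended body. Its main run of 10.7 kb around the start held 9 and 8 of them, with strongest folds of 8.90 and 9.68. All of that run lay within 10 kb of Zfp574, a zinc finger gene, and its outermost peaks also near Pou2f2, so the peaks cannot be given to Grik5 alone.

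The 7 NMDA receptor genes, whose channels pass calcium and need a co-agonist, had 37 deleted and 28 control peaks, and all had peaks in both lists. Grin1, the subunit every NMDA receptor needs, had a single peak in each list, with folds of 5.71 and 4.84, at the same place about 13.9 kb inside the gene and none at its start. Grin2a, a glutamate-binding subunit that rises in the postnatal brain, had 9 deleted and 3 control peaks. Of these, 7 deleted and 1 control peak were list-only. The strongest folds were 4.70 and 4.44, so no peak of Grin2a reached a fold of 5 in either list. Grin2b, the subunit that prevails in the embryonic brain, had 4 and 3 peaks with strongest folds of 3.69 and 4.44.

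Grin3a, a glycine-binding subunit, had 6 deleted and 7 control peaks. A gene-end peak had folds of 5.54 and 6.25, and a site in the body had 6.04 and 5.85. Both sites of Grin3a thus had folds over 5 in both lists. For Grin2c, Grin2d and Grin3b, which are short genes, every peak lay in the flanks and not in the body. Their strongest folds were 9.23 and 7.56 at Grin2c, 11.1 and 11.7 at Grin2d, and 7.56 and 6.46 at Grin3b. All of those peaks were within 10 kb of other genes, Fdxr, Fads6 and Tmem104 at Grin2c, Kdelr1, Kcnj14 and Grwd1 at Grin2d, and Arid3a, Wdr18, Tmem259 and Cnn2 at Grin3b.

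Grid1 encodes a delta receptor, a class that binds cerebellins at synapses. It had 8 deleted and 5 control peaks spread over a body of 763 kb, of which 6 and 3 were list-only, and its shared gene-end peak had folds of 3.53 and 5.25. The direction turned round under stricter settings. With lists of equal length Grid1 had 4 deleted and 5 control peaks. At −log10 q of at least 5 it had 0 and 5 and met the rule in the control direction (0.67% of all protein-coding genes).

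The 8 metabotropic glutamate receptor genes had 65 deleted and 32 control peaks, a ratio of 2.03 (interval 1.31 to 3.21) whose lower bound was under the ratio of all gene bodies. Grm5 held 34 of the deleted and 22 of the control peaks, and Grm4 held 16 and 5. Of these genes 2 had peaks in the deleted list alone (Grm3, Grm8; 25%) and 2 in neither list (Grm2, Grm7; 25%). The shares were 5.48% and 29.3% over all protein-coding genes, and 7.87% and 13.2% over those of at least 100 kb.

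Grm5 (chr7:87583981-88135063, 551 kb), a group I receptor that couples to phospholipase C and calcium release, is known as the main metabotropic glutamate receptor of neural progenitors and young astrocytes. It had 34 deleted and 22 control peaks, or 5.95 and 3.85 per 100 kb of extended body, and made up 18.8% of the receptor genes' peaks in each list. They lay in runs along the gene. The run at the low-coordinate end, of 3.51 kb, held 5 peaks in each list with strongest folds of 8.40 and 9.20, and none of them was list-only. The next large run, of 20.3 kb from 176 kb inside, held 11 deleted and 8 control peaks with strongest folds of 7.22 and 5.29. Another run, of 5.95 kb from 337 kb inside, held 6 and 4 with strongest folds of 5.15 and 5.0. Near the other end a run of 8.20 kb held 4 deleted and 1 control peak. Over the gene, 13 deleted peaks and 1 control peak were list-only, so 21 peaks of each list overlapped the other list. Without Grm5 the ratio over the other receptor genes was 1.55, with 147 and 95 peaks.

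Group II and group III receptors lower cyclic AMP and many act on transmitter release. Grm3, a group II receptor found on neurons and astrocytes, had 4 deleted peaks with folds of 2.85 to 3.71 and no control peak. One of them, chr5:9724820-9725338, covered 519 bases just inside the start and had the highest fold of the 4, 3.71. The nearest control peak to it lay 457813 bases away. Grm2, the other group II gene, had no peak.

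Grm4 (chr17:27422387-27513826) is a group III receptor and had 16 deleted and 5 control peaks, or 14.4 and 4.49 per 100 kb of extended body. Its 6 deleted peaks in a run of 30.8 kb at the low-coordinate end were all list-only, with folds of 2.83 to 3.53 and no control peak within 15 kb. A run of 12.7 kb nearer the other end held 10 deleted and 5 control peaks, and its strongest peak had folds of 5.88 and 5.80. Counted at −log10 q of at least 5, Grm4 was the 1 receptor gene that still met the rule of 2 times as many peaks. At that setting 5.01% of all protein-coding genes met it. Grm8 had 1 deleted peak with a fold of 3.17 and no control peak over 860 kb. Grm6, a receptor of retinal bipolar cells, had 1 shared flank peak with folds of 5.37 and 6.00 that lay within 10 kb of Zfp879.

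**Figure D2:**
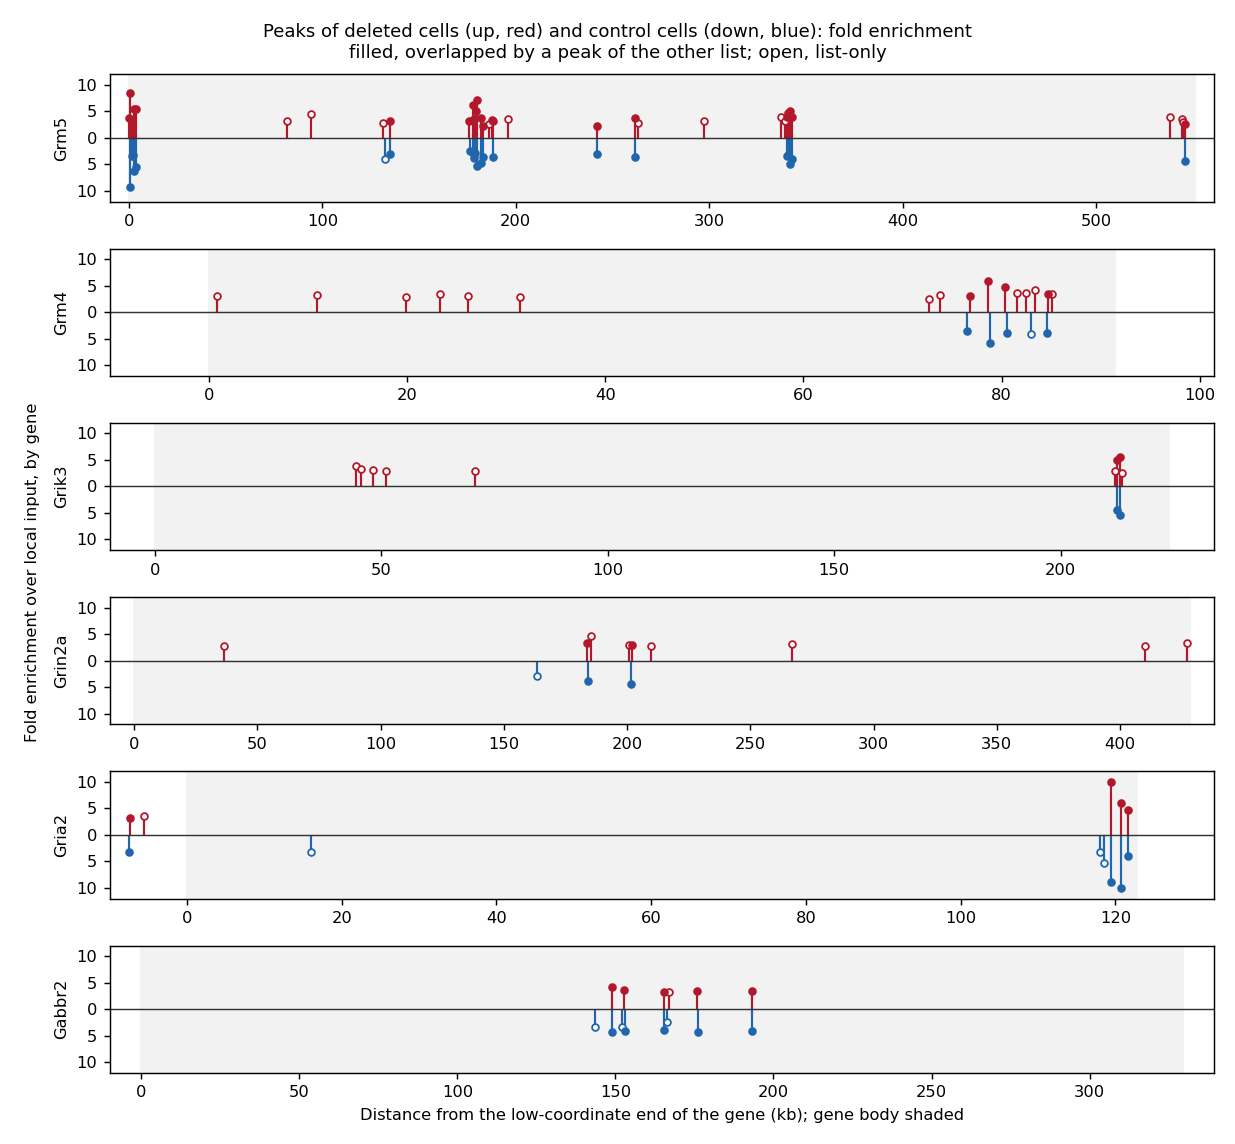
Positions and folds of peaks along 6 receptor genes, with deleted peaks upward and control peaks downward and distance in kb from the low-coordinate gene end on the horizontal axis; filled symbols are shared and open ones list-only. Tall peaks stand opposite each other at Grm5, Grik3 and Gria2, and the run of 6 deleted peaks of Grm4 at its low end, with folds of 2.83 to 3.53, has no control peak opposite.

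GABA-A receptors are chloride channels of 5 subunits, most often drawn from the alpha, beta and gamma classes. Of the 16 such genes outside the rho class, 12 had no peak in either list, 3 had peaks in both, Gabra2 and Gabrg1 among them, and 1 had a control peak alone (Gabra5, fold 3.03). Many of these genes sit side by side on chromosomes, and the groups differed. On chromosome 5, Gabrg1 and Gabra2 had start peaks in both lists while their neighbours Gabra4 and Gabrb1 had no peak. On chromosome 11, Gabra6 and Gabrb2 had none. On chromosome 7, Gabrg3 had none and Gabra5 had the weak control peak. On X, Gabra3, Gabre and Gabrq had none.

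Gabra2, an alpha subunit prominent early in development, had 2 deleted and 3 control peaks, all within 1 kb of its start and all shared. The strongest had a fold of 4.70 and a length of 1026 bases in deleted cells, against 5.85 and 629 bases in control cells. Gabrg1, a gamma subunit, had 5 deleted and 4 control peaks in a run of 3.20 kb around its start, again all shared, with strongest folds of 4.83 and 6.00. No peak of either gene was list-only, so their acetylation was found in the same places in both libraries.

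The rho genes, known mainly from the retina, had deleted peaks alone, 1 at Gabrr1 (fold 2.33) and 2 at Gabrr2 (fold 3.36 each), and Gabrr3 had none. Gabrd, which serves tonic inhibition, and Gabrp had no peak either.

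The GABA-B receptor is a pair of G protein-coupled proteins, of which Gabbr1 binds GABA and Gabbr2 couples to the G protein. Gabbr1 had 2 peaks in each list, and its start peak had folds of 5.04 and 5.85. Gabbr2 had 6 deleted and 8 control peaks with strongest folds of 4.20 and 4.24, all inside the gene between 136 and 186 kb from its start. Among the genes with 4 or more peaks, Gabbr2 was thus one of those with more control than deleted peaks, by a small margin in the full lists. With lists of equal length it had 4 deleted and 8 control peaks, and at −log10 q of at least 5 it had 2 and 4. Both counts met the rule in the control direction, where 2.55% and 0.67% of all protein-coding genes did.

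Glycine receptors are chloride channels of the spinal cord and brainstem. Glrb, the beta subunit that anchors them to gephyrin, had 3 deleted and 1 control peak. The control peak, with a fold of 4.03 inside the gene, overlapped a deleted peak with a fold of 3.86. A start peak with a fold of 4.20 was in the deleted list alone. Glra1 had 1 deleted peak with a fold of 3.02, and Glra2, Glra3 and Glra4 had none.

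The deleted peaks with no counterpart were weak. Of the 181 deleted peaks 92 were list-only (50.8%), as were 28 of the 117 control peaks (23.9%), where the whole lists had 50.6% and 24.3%. The 92 had folds of 2.33 to 4.70 with a median of 3.17, and the 28 had folds of 2.43 to 5.25 with a median of 3.51. In the deleted list, 30 of 37 receptor-gene peaks with folds under 3 were list-only (81.1%; 78.6% in the whole list). With folds of 3 to 4 they were 55 of 87 (63.2%; 68.1%), and with folds of 4 to 5 they were 7 of 24 (29.2%; 33.5%). None of the 33 deleted peaks with a fold of at least 5 was list-only (0 to 10.6%; 4.17% in the whole list). In the control list, 3 of 7 receptor-gene peaks with folds under 3 were list-only (42.9%; 43.1% in the whole list), and 15 of 43 with folds of 3 to 4 (34.9%; 41.4%). With folds of 4 to 5 they were 9 of 30 (30%; interval 14.7 to 49.4%; 17.8% in the whole list). At a fold of at least 5 it was 1 of 37 (2.70%; 1.28%), the Gria2 peak above. Among peaks with a fold of at least 5 the receptor genes had 33 deleted and 37 control ones, where all protein-coding gene bodies had 17210 and 16510.

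**Figure D3:**
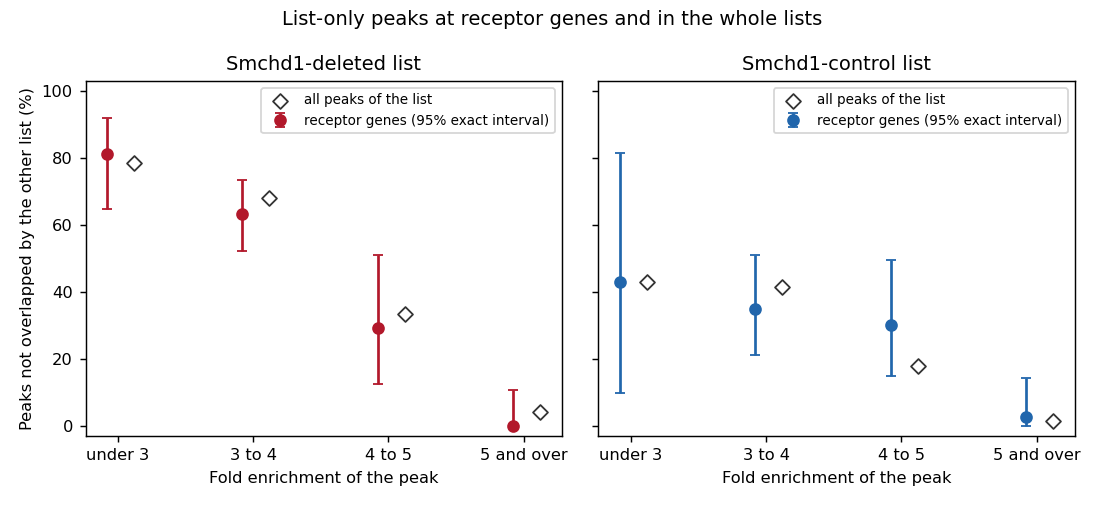
Share of list-only peaks (%) by fold enrichment, for peaks at receptor genes and for the whole lists, in deleted and control cells, with exact 95% binomial intervals for the receptor-gene peaks. In deleted cells the share goes down from 81.1% under a fold of 3 to 0% of 33 peaks at a fold of 5 or more, close to the whole list at each step.

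List-only peaks were also short. Their median length was 236 bases in deleted and 212 in control cells, against 455 and 366 for shared peaks at the same genes. Some of them adjoin a peak of the other list: 20 of the 92 deleted and 15 of the 28 control list-only peaks lay within 1 kb of one. Farther than 10 kb from any peak of the other list were 47 deleted and 6 control list-only peaks. Most receptor-gene peaks lay inside the gene away from its ends, 134 deleted (74.0%) and 76 control (65.0%). The annotation used gives gene bodies with no exons, so introns and exons were not separated. The flanks held 22 deleted peaks, 20 of them within 10 kb of a coding gene that is no receptor gene, and 18 control peaks, 17 of them so placed.

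**Figure D4:**
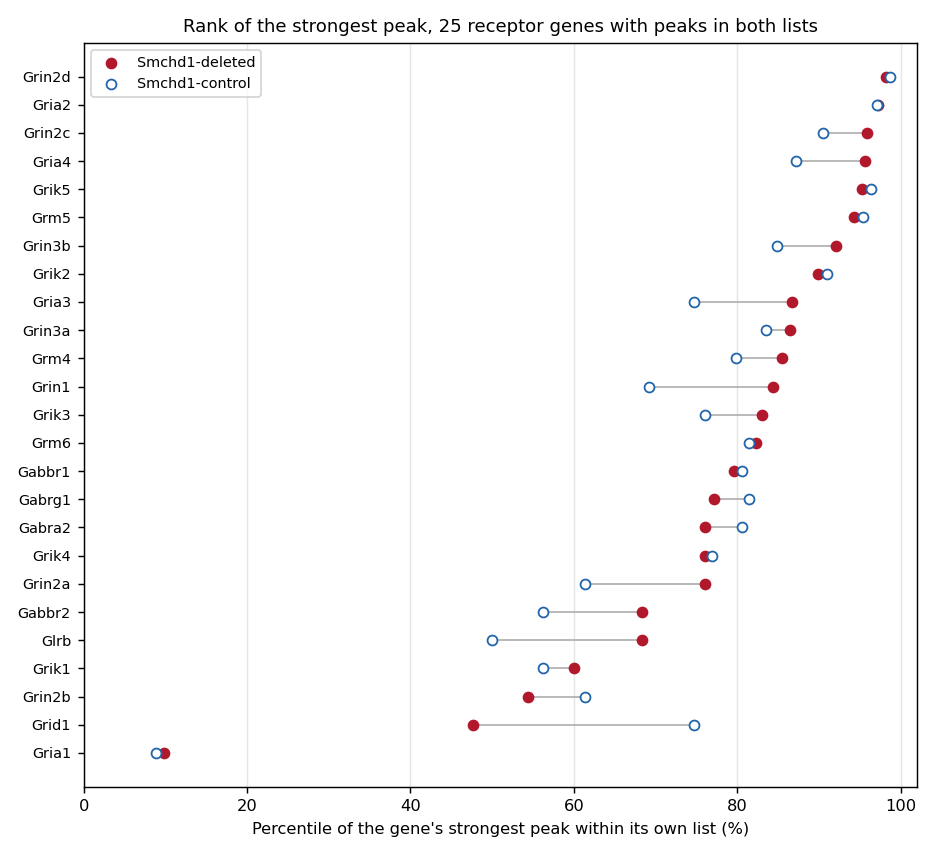
Percentile of each gene's strongest peak by fold within its own list, for 25 receptor genes with peaks in both lists; filled circles are deleted and open circles control cells. Grin2d and Gria2 stand highest in both lists, and Gria1 lowest in the deleted list.

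Within each list the strongest peak of a receptor gene stood anywhere between the bottom and the top. It reached the 98.2 percentile of the deleted list and the 98.7 percentile of the control list at Grin2d, in a flank shared with Kdelr1. At Gria2, where the site was at the start or in the body, it stood at the 97.2 percentile of the deleted list and the 97.0 percentile of the control list. Gria4 stood at 95.6 and 87.2, Grik5 at 95.3 and 96.4, Grm5 at 94.2 and 95.4, and Grik2 at 89.9 and 91.0. The lists differ in length, so a gap between the percentiles is not read as a change.

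At annotated starts the receptor genes had few peaks. A RefSeq start was at hand for 36 of the 52 genes, and 7 of them had a peak within 1 kb in both lists (19.4%), against 51.2% of the 17273 protein-coding genes with such a start. These were Gria2, Gria4, Grik2, Grik5, Gabra2, Gabrg1 and Gabbr1. In the deleted list alone there were 3 (5.11% of all protein-coding genes), Glrb with a fold of 4.20, Grm3 with 3.71 and Grik4 with 3.53. In the control list alone there were 0 (0.839% of all), and 26 had a start peak in neither list (42.9% of all). Of the other 16 genes, read at either gene end, 4 had such a peak in both lists (Gria3, Grin3a, Grid1, Grm5), 1 in the deleted list (Grm4, fold 3.02) and 1 in the control list.

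Promoters rich in CG dinucleotides are commonly acetylated in many cell types, and several receptor promoters of this kind were not. The observed over expected CpG ratio, taken from a gene's window of highest ratio, had a median of 0.538 in the 26 receptor promoters without a start peak, against 0.233 over all genes without one, and 11 of the 26 were over 0.6 (42.3%, against 16.4% of all such genes). Grin1 had the highest ratio, 1.196, followed among these genes by Grik3 with 1.01, Grm8 with 0.986 and Gabbr2 with 0.961. The 7 promoters with peaks in both lists had a median of 0.662, below the 0.814 of all genes with start peaks in both. Gabrg1 and Grik5 were acetylated with ratios of 0.276 and 0.277. The printed Gabrg1 window shows this as 3 CG dinucleotides in 300 bases, beside 46 in that of Gabbr2.

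**Figure D5:**
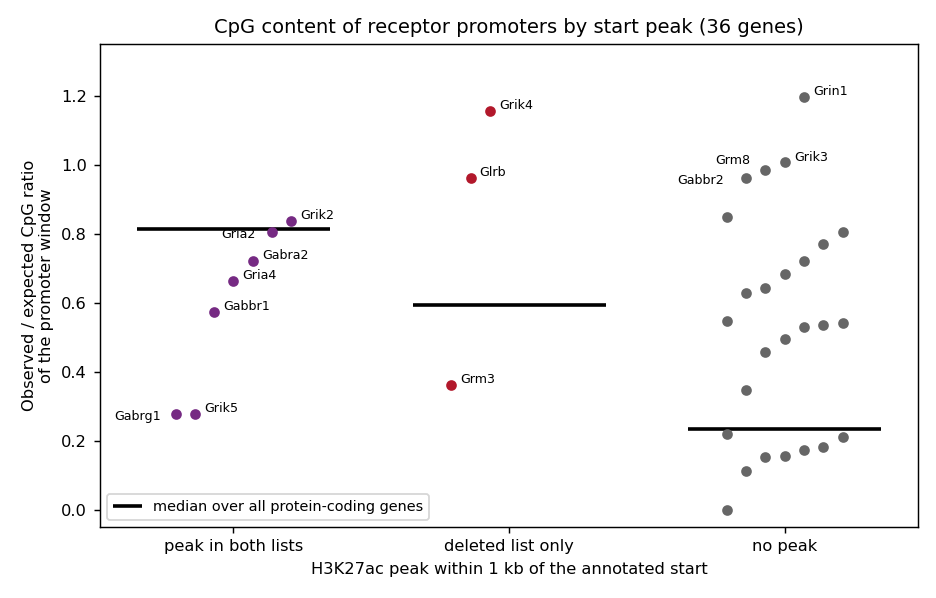
Observed over expected CpG ratio of the promoter window (vertical axis) for the 36 receptor genes with an annotated start, by whether a peak lay within 1 kb of the start in both lists, in the deleted list alone or in neither; bars are medians over all protein-coding genes of that class. Grin1, Grik3, Grm8 and Gabbr2 lie near or above 1 with no start peak, and Gabrg1 and Grik5 lie under 0.3 with one in both lists.

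Of the 6 X-linked receptor genes, Gria3 had peaks in both lists, 1 deleted and 2 control, and the other 5 (Gabra3, Gabre, Gabrq, Glra2, Glra4) had none. Of all 966 X-linked protein-coding genes, 33.3% had peaks in both lists and 58.3% in neither. The 46 autosomal receptor genes had 180 deleted and 115 control peaks, a ratio of 1.57. No X-linked receptor gene had a peak in 1 list alone.

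The genes that make, carry, clear and anchor these transmitters and their receptors were set beside the receptors in lists of 60 genes. Of these 44 had peaks in both lists (73.3%), 7 in the deleted list alone, 1 in the control list alone and 8 in neither. Over all protein-coding genes the shares were 64.4%, 5.48%, 0.869% and 29.3%, in that order. The rule of 2 times as many deleted peaks was met by 7 (11.7%), and by none in the other direction. The share lay near the 10.2% of all protein-coding genes.

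The glial uptake genes held the most peaks. Slc6a11, a GABA transporter of astrocytes, had 60 deleted and 38 control peaks, and Slc1a3, the glutamate transporter of radial glia and astrocytes, had 31 and 22. Slc6a9, a glycine transporter, had 25 and 21. The strongest folds were 7.72 and 8.88 at Slc6a11, 10.1 and 12.3 at Slc1a3, and 9.40 and 7.87 at Slc6a9, so these genes had strong sites in both lists. Of the 8 synthesis and degradation genes 5 had peaks in both lists, among them Glul, which makes glutamine (strongest folds 7.22 and 9.28). Deleted peaks alone were found at 2 of the 8, where 5.48% of all protein-coding genes had them. These were Abat (strongest fold 6.21) and Gad1, which makes GABA (strongest fold 3.86), and Gad2 had no peak. Of the vesicular transporters, Slc17a7 and Slc32a1 had peaks in both lists and Slc17a6 and Slc17a8 had none.

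Of the 15 auxiliary subunit genes of ionotropic glutamate receptors, 9 had peaks in both lists and 3 in neither (Cacng2, Cacng3, Frrs1l). The other 3 of the 15 (Shisa6, Shisa7, Shisa9) had peaks in the deleted list alone, where 5.48% of all protein-coding genes did. That difference was not tested. Gsg1l, which slows AMPA receptor recovery, had 20 deleted and 6 control peaks. All 13 excitatory scaffold genes had deleted peaks and 12 had control peaks. The rule of 2 times as many was met by 6 of the 13 (46.2%, against 10.2% of all protein-coding genes and 19.5% of those of at least 100 kb), namely Shank1, Shank3, Dlg1, Dlg2, Grip2 and Homer2. The scaffold list was chosen with earlier results known, and its share was not tested. Shank3 had 9 deleted and 4 control peaks, Shank1 had 5 and 2, Dlg1 had 6 and 1, Dlg2 had 7 and 3, Grip2 had 7 and 1, and Homer2 had 4 and 0. Shank2 had 30 and 16, and Dlg4, which encodes the postsynaptic density protein that anchors NMDA receptors, had 21 and 13. Of the 9 inhibitory scaffold and GABA-B auxiliary genes 7 had peaks in both lists, among them Gphn (gephyrin) with strongest folds of 10.6 and 11.5.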

How the data were processed

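H3K27ac ChIP-seq and input libraries of Smchd1-deleted and Smchd1-control neural stem cells were used as deposited peak lists, 1 list per group. Reads were handled with bcl2fastq and Bowtie 0.12.9 on mm10, per the submitters' processing notes. Peaks were called with MACS2 2.1.0.20140616 against each library's own input at a q-value threshold of 0.05, with no more than 1 tag counted at any position, per the file headers. The fold enrichment (a ratio over local background), the pileup signal and the −log10 p and −log10 q scores of each peak are the authors' deposited values. After filtering, 54194233 deleted and 42277672 control ChIP tags and 77101643 and 80601280 input tags remained, per the file headers. The deleted library was thus the deeper one; the part of depth in the counts was not tested beyond the alternatives. The study's RNA-seq was not analysed here.

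From these lists, peaks on chromosomes 1 to 19 and X (91557 and 63613 of 91639 and 63698) were assigned with Python 3.11.15, numpy 2.4.6 and pandas 2.3.3 to RefSeq gene bodies (GRCm38.p6, the mm10 assembly) extended by 10 kb. Sharing meant an overlap of at least 1 base. Starts and promoter sequences came from the RefSeq promoter table, which held 36 of the 52 genes (43 starts). Clopper-Pearson limits are given for shares, and for a ratio those of the binomial share of its 2 counts (scipy 1.17.1). Assignment, sharing and the rule of 2 times as many peaks were tested on simulated data. Receptor genes were named, with full values for the 10 with the most deleted peaks, the 10 with the strongest peak in either list, those past the rule, those with a start peak, the X-linked ones and those in 1 list with 2 or more peaks or a fold of at least 4. Of the other lists, genes past the rule and the 3 with the most deleted peaks were named by rule, and the rest after their values were seen. Some receptor genes that enter the totals are not reported here by name. With 1 library per group no test between groups was made. The receptor genes and the other lists were chosen with earlier results of these data known. Alternatives changed the extension, the fold and q thresholds, the list length, the overlap and the start window.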

Additional observations from a re-analysis of the deposited data

How the results depend on the processing

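The excess of deleted peaks was absent or small under stricter settings. With lists of equal length the ratio of summed peaks was 0.966 (113 deleted and 117 control peaks). That setting takes away the excess of the whole list by construction, so its ratio cannot show whether an excess is absent. With a fold of at least 5 the ratio was 0.892 (33 and 37, where all protein-coding genes had 17210 and 16510). With −log10 q of at least 5 it was 1.04 (74 and 71), and the sums over all genes were not counted there. Under these 3 settings, in that order, the genes in the deleted list alone numbered 2, 1 and 1, those past the rule of 2 times as many deleted peaks 1, 0 and 1, and the deleted list-only share was 33.6%, 9.09% and 31.1%. The fold and q thresholds were applied to both lists. A peak whose counterpart fell under the threshold therefore counts here as list-only, unlike in the full lists, where none of the 33 was. Of all protein-coding genes 2.7%, 0.855% and 5.01% met that rule under these settings, and 2.55%, 0.795% and 0.67% met it in the control direction. With equal lengths 2 genes were in the control list alone, 1 (Gabbr2) met the rule in the control direction, and the control list-only share was 35.0%. With a fold of at least 5, 15 genes had peaks in both lists and 4 in the control list alone. With −log10 q of at least 5, 3 genes (Grid1, Gabbr2, Grin3a) met the rule in the control direction. With no extension 1 did. With 50 kb of extension 3 genes were in the deleted list alone, 0 in the control list alone, and 2 X-linked genes had a peak. Requiring at least 0.5 of a peak to be overlapped gave list-only shares of 61.3% in deleted and 35.0% in control cells. Leaving out peaks near another coding gene left 0 genes in the control list alone. Of the 61 recomputed group values 36 stayed within the limits set for no change. The start counts, 7 in both lists, held with a start window of 2.5 kb.

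No paired analysis was possible because each group has 1 H3K27ac library and no test was made. One library per group gives no spread between replicates, and the part of the deleted library's greater depth was not tested beyond the settings above.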

Other observations

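Short motifs were counted in the 300-base promoter windows of the 36 receptor genes with an annotated start and of all 17273 protein-coding genes with one, on both strands; a gene counts where any of its windows holds the motif. GGACAG, the second part of the binding element of REST, a repressor of neuronal genes, was found in 16 receptor genes (44.4%), against 25.3% of all genes. An exact match to TTCAGCACC, the first part of that element, was found in 1 of the 36, Grm2 (2.78%, against 0.486%), whose promoter also held GGACAG. The E-box CAGCTG was found in 2, Gabrp and Glra3 (5.56%, against 17.6%), ACAAAG or ACAATG, letters of Sox motifs, in 6 (16.7%, against 28.4%), and the cyclic AMP element TGACGTCA in 0 (0%, against 2.58%). Of the 7 receptor genes with start peaks in both lists, Gria2 and Gabrg1 held GGACAG. Only exact matches were counted, so copies with a changed letter were missed. The printed Gria2 window holds such a copy of the first REST part, with 1 letter changed. It lies close to GGACAG, both on the strand opposite to the printed one. The counts therefore do not show that Grm2 alone carries both parts. A match describes letters in these windows and shows no binding.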
